A study of Mus musculus with 12 samples.

Results

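The BCL2 family genes analyzed here were 10 mouse genes that decide whether a cell lives or dies through its mitochondria, out of 24346 gene symbols listed for each library. They were taken by symbol and comprise 5 pro-survival genes (Bcl2, Bcl2l1, Mcl1, Bcl2a1a and Bcl2a1b), 4 BH3-only genes (Bcl2l11, Bmf, Bbc3 and Pmaip1) and the effector Bax. RNA-seq was performed on myeloid-derived suppressor cells (MDSCs), immature myeloid cells that dampen antitumor immunity, sorted from tumors of female wild-type C57BL/6J mice. Hepa 1-6 hepatoma cells had been placed in the liver of mice aged 6 to 8 weeks, and mice with a high MDSC share in blood were taken into treatment. There were 6 groups of 2 libraries: M-MDSCs, the monocytic subset (CD11b+, Ly-6C high, Ly-6G-), and PMN-MDSCs, the polymorphonuclear subset (CD11b+, Ly-6C intermediate, Ly-6G+), each from mice given vehicle, MS-275 or CXD101. Both compounds inhibit the class I histone deacetylases HDAC1, HDAC2 and HDAC3, and both were injected daily at 5 mg/kg for 10 days from day 10 after tumor cell injection, with collection on day 21. That schedule is described for the M-MDSC experiment and is not stated separately for PMN-MDSCs. The replicates are called biological in the account of the M-MDSC experiment, but whether a library came from a single mouse or a pool is not stated, nor is the origin of the PMN-MDSC replicates given separately. The p-values rest on the spread between the 2 libraries of a group, pooled over all groups fitted and drawn toward the trend over all genes.

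The mitochondrial pathway turns on contacts between 3 kinds of BCL2 family protein. Pro-survival proteins hold BAX and its relative BAK1 in check, BH3-only proteins bind the pro-survival proteins or activate the effectors, and active effectors open the outer mitochondrial membrane so that cytochrome c reaches the cytosol and caspases are switched on. Neutrophils are short-lived cells that depend on MCL1, and BCL2A1 (also called A1) is a further pro-survival protein of myeloid cells; both proteins turn over fast. Mice carry several nearly identical copies of the A1 gene, and the symbols Bcl2a1a and Bcl2a1b are 2 of them.

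Because reads can be assigned to the wrong copy, the A1 sequences are shown before any value. The first 105 coding bases of Bcl2a1a, Bcl2a1b and the third copy Bcl2a1d, all in coding exon 1 of 2, hold 7 of the positions at which the copies differ, and these are printed in capitals, 5′ to 3′, from the GENCODE transcripts of build GRCm38 (mm10). They lie at chr9:88957051-88957155 on the plus strand, chr9:89199360-89199464 on the plus strand and chr9:88731615-88731719 on the minus strand, respectively.
Bcl2a1a: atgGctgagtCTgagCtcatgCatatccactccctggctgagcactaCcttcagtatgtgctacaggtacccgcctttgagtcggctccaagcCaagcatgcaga
Bcl2a1b: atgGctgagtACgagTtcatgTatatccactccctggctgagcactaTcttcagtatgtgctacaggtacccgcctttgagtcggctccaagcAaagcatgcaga
Bcl2a1d: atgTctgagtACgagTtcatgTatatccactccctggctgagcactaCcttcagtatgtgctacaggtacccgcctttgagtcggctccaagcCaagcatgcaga
Over the whole coding sequence of 516 bases, Bcl2a1a differed from Bcl2a1b at 11 positions and from Bcl2a1d at 7, and Bcl2a1b differed from Bcl2a1d at 6. A read of 101 bases, the length sequenced, would match another gene exactly at 43.1% of its possible positions in the Bcl2a1a transcript, 56.3% in Bcl2a1b and 54.0% in Bcl2a1d. For Bax this share was 9.40%, all with the overlapping gene model Gm45808, and for the other 7 members it was 0%. The A1 shares also count matches to the gene model Gm29094. Between the copies alone, Bcl2a1a shared 43.1% with Bcl2a1d and 16.3% with Bcl2a1b. Bcl2a1b shared 30.5% with Bcl2a1d and 16.3% with Bcl2a1a, and Bcl2a1d shared 40.6% with Bcl2a1a and 28.7% with Bcl2a1b. The split of reads between the A1 copies is therefore uncertain, and their sum is given beside each copy.

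The genes lie on several chromosomes. In GRCm38 the spans are chr1:106538178-106714274 (minus strand) for Bcl2, chr2:152780668-152831728 (minus) for Bcl2l1, chr3:95658788-95663176 (plus) for Mcl1, chr9:88956900-88962419 (plus) for Bcl2a1a, chr9:89199209-89207827 (plus) for Bcl2a1b, chr2:128126038-128162547 (plus) for Bcl2l11, chr2:118528757-118549687 (minus) for Bmf, chr7:16308393-16318205 (plus) for Bbc3 and chr7:45461697-45466898 (minus) for Bax. Bcl2 overlaps 3 other annotated genes, among them the antisense gene D630008O14Rik, and Bcl2a1b shares its strand and most of its span with Gm29094. The counting is not stated to have used strand, so reads of Bcl2 and its antisense partner cannot be told apart.

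Levels were deposited as FPKM, fragment counts scaled to transcript length and to the mapped reads of the library, so levels can be compared between genes. The tables hold no read totals, and from the steps between low FPKM values the depth was estimated at 9150000 to 11550000 reads in M-MDSC libraries and 7600000 to 8850000 in PMN-MDSC libraries. Replicates correlated with Pearson's r of 0.9945 to 0.9961 on the log2 scale over all symbols. S100a8 and S100a9, the neutrophil calprotectin genes, took 10.2% and 13.7% of all FPKM in PMN-MDSCs of vehicle mice and 27.3% to 30.9% in those of treated mice. All 10 members passed the filter on low values in both subsets (1 FPKM or more in 2 or more libraries). A gene was called changed at an adjusted p under 0.05 with a fold change above 1.5 in limma on log2(FPKM + 1); every log2 fold change is on that scale, which understates the change of low genes such as Bcl2 and Bmf.

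**Figure D1:**
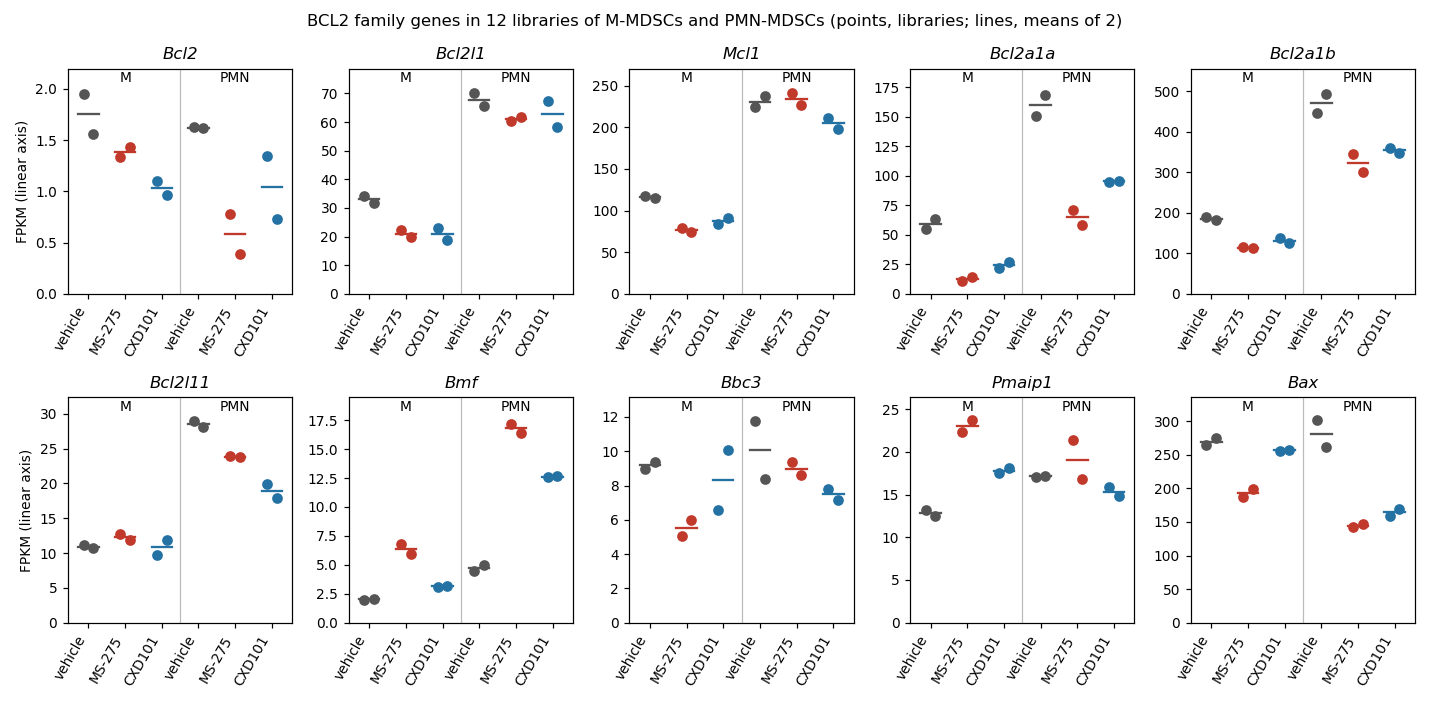
FPKM of the 10 BCL2 family genes in the 12 libraries, on linear axes that start at 0. Points are libraries, lines are means of 2, M-MDSCs are on the left and PMN-MDSCs on the right of each panel, and grey, red and blue mark vehicle, MS-275 and CXD101. Bcl2a1a was lower in all treated libraries of both subsets than in vehicle, Bmf was higher, and Bax was lowest in treated PMN-MDSCs.

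Bax and the A1 copy Bcl2a1b were the most abundant members and Bcl2 the least. In M-MDSCs of vehicle mice the order by mean FPKM was Bax (269.8), Bcl2a1b (185), Mcl1 (116), Bcl2a1a (59.0), Bcl2l1 (33.0), Pmaip1 (12.8), Bcl2l11 (10.9), Bbc3 (9.18), Bmf (2.02) and Bcl2 (1.75). In PMN-MDSCs of vehicle mice Bcl2a1b came first at 471, followed by Bax at 282, Mcl1 at 231, Bcl2a1a at 159.8, Bcl2l1 at 67.8, Bcl2l11 at 28.5, Pmaip1 at 17.1, Bbc3 at 10.1, Bmf at 4.70 and Bcl2 at 1.62. Neighbours in these orders whose libraries overlapped were found under treatment: Bcl2a1a with Bcl2l11 and Bmf with Bbc3 in M-MDSCs under MS-275, Bcl2a1a with Bcl2l1 and Bcl2l11 with Bbc3 in M-MDSCs under CXD101, and Bcl2a1a with Bcl2l1 and Pmaip1 with Bmf in PMN-MDSCs under MS-275.

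The A1 copy Bcl2a1a showed the widest range of the members, from 10.7 to 168 FPKM over the 12 libraries. It stood at 54.8 and 63.2 FPKM in M-MDSCs under vehicle, 10.7 and 14.3 under MS-275, and 22.1 and 26.7 under CXD101. In PMN-MDSCs it stood at 151 and 168 under vehicle, 71.1 and 58.4 under MS-275, and 95.2 and 96.1 under CXD101. In each subset the 3 groups did not overlap, with vehicle highest and MS-275 lowest. Non-overlap between 2 groups was common over all genes. In M-MDSCs 75.4% of all tested genes did not overlap between MS-275 and vehicle, 63.1% between CXD101 and vehicle and 59.5% between the inhibitors. In PMN-MDSCs these shares were 77.2%, 74.8% and 48.5%. They stand beside each later statement on overlap between 2 groups. No such share was computed for 3 groups that all lay apart, or for sums, shares and ratios. Bcl2a1a fell in all 4 comparisons with vehicle: in M-MDSCs the log2 fold change was -2.16 (SE 0.140, adjusted p = 1.62e-05) under MS-275 and -1.24 (SE 0.140, adjusted p = 7.10e-04) under CXD101, and in PMN-MDSCs it was -1.29 (SE 0.0996, adjusted p = 4.46e-05) and -0.73 (SE 0.0996, adjusted p = 8.96e-04).

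Bcl2a1b, the most abundant A1 copy, moved in the same direction by less. Its FPKM was 189 and 182 in M-MDSCs under vehicle, 115 and 113 under MS-275, and 137 and 126 under CXD101. In PMN-MDSCs it was 448 and 494 under vehicle, 345 and 301 under MS-275, and 360 and 348 under CXD101. Treated libraries lay below vehicle in both subsets, and only the MS-275 comparison in M-MDSCs was called, at -0.70 (SE 0.0612, adjusted p = 6.59e-05). Quantile normalization brought that value under the fold threshold, to -0.57. The other 3 comparisons had adjusted p of 0.00107 to 0.00548 with log2 fold changes of -0.50 in M-MDSCs under CXD101 and -0.54 and -0.41 in PMN-MDSCs under MS-275 and CXD101, all below the fold threshold. The PMN-MDSC value for MS-275 passed that threshold without vehicle replicate 1 (-0.62), without MS-275 replicate 1 (-0.64) or with FPKM rescaled without S100a8 and S100a9 (-0.59).

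Bcl2a1d, the third A1 copy and not a member of the list, was not called in any comparison with vehicle. It lay at 60.9 and 52.5 FPKM in M-MDSCs under vehicle and at 52.1 and 52.3 under MS-275, a log2 fold change of -0.11 (adjusted p = 0.394). In PMN-MDSCs it was lower under both inhibitors, each at an adjusted p under 0.05 in limma and below the fold threshold. Its share of the summed copies there was 14.7% and 15.5% under vehicle, 17.7% and 18.2% under MS-275, and 14.0% and 15.5% under CXD101. The sum itself fell with treatment. The fourth copy, Bcl2a1c, was listed at 0 in all M-MDSC libraries and reached at most 0.512 FPKM in PMN-MDSCs.

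**Figure D2:**
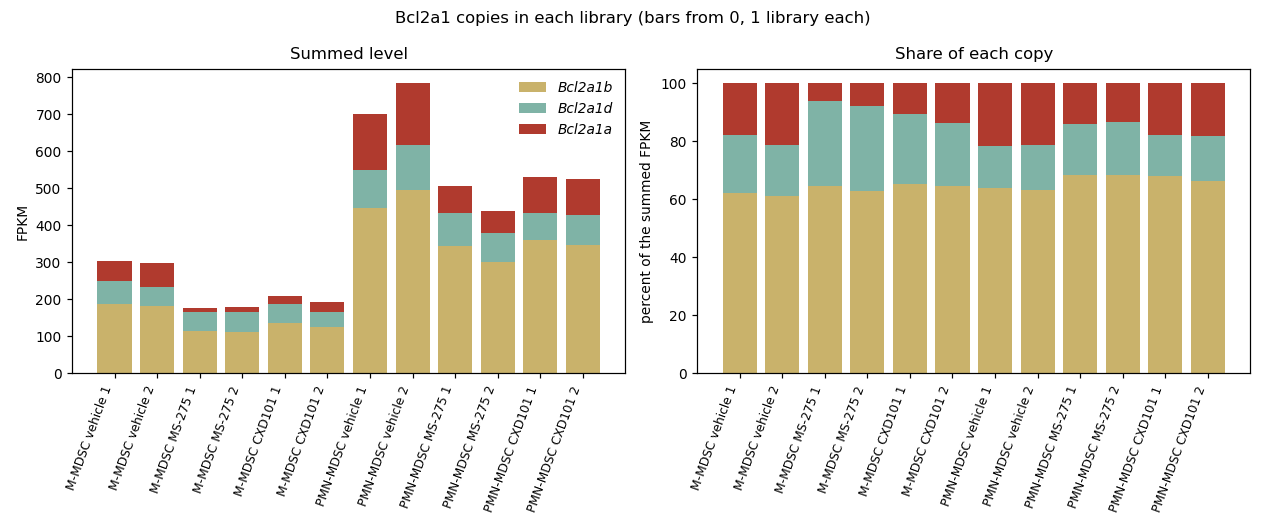
Stacked bars of the 3 expressed A1 copies in each of the 12 libraries, as summed FPKM (left) and as percent of that sum (right). The sum was 298 to 305 FPKM in M-MDSCs under vehicle against 178 to 180 under MS-275, and the share of Bcl2a1a was 17.995% to 21.2% against 6.04% to 7.97%.

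The sum of the 3 copies separated the groups as well. It was 305 and 298 FPKM in M-MDSCs under vehicle, 178 and 179.5 under MS-275, and 210 and 194 under CXD101, and 702 and 785, 506 and 439, and 530 and 526 in the corresponding PMN-MDSC groups. When the sum replaced the single rows, the decrease was called under MS-275 in M-MDSCs (log2 fold change -0.75, adjusted p = 3.30e-05) and in PMN-MDSCs (-0.65, adjusted p = 4.88e-04). Under CXD101 it was -0.58 (adjusted p = 4.17e-04) and -0.49 (adjusted p = 0.00264), both below the fold threshold. The share of Bcl2a1a in the sum was 17.995% and 21.2% in M-MDSCs under vehicle, 6.04% and 7.97% under MS-275 and 10.5% and 13.7% under CXD101. In PMN-MDSCs it was 21.5% in both vehicle libraries, 14.1% and 13.3% under MS-275 and 17.98% and 18.3% under CXD101, so the groups did not overlap in either subset. The sequences just upstream of the RefSeq starts of Bcl2a1a and Bcl2a1b (GRCm38.p6), compared without gaps, matched at 205 of 206 bases. Those of Bcl2a1a and Bcl2a1d matched at 172 of 244, and an insertion or deletion would lower such a count. Whether upstream sequence bears on the changes of the copies was not tested.

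Bcl2l1, which encodes the pro-survival protein BCL-XL, fell in M-MDSCs under both inhibitors. Its FPKM was 34.2 and 31.8 under vehicle, 22.2 and 19.8 under MS-275, and 23.0 and 18.8 under CXD101, and no treated library reached the vehicle level. The log2 fold changes were -0.63 (SE 0.105, adjusted p = 0.00174) for MS-275 and -0.64 (SE 0.105, adjusted p = 0.00400) for CXD101. Both lay close to the fold threshold: the MS-275 value was -0.58 without vehicle replicate 1, -0.55 without MS-275 replicate 2, -0.51 after quantile normalization and -0.56 with FPKM rescaled without S100a8 and S100a9. The CXD101 value was -0.50 without CXD101 replicate 2 and -0.58 after quantile normalization. In PMN-MDSCs Bcl2l1 stood at 70.1 and 65.6 under vehicle, 60.5 and 61.6 under MS-275, and 67.3 and 58.3 under CXD101, and neither comparison passed the test (adjusted p = 0.173 and 0.305).

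Mcl1, whose product neutrophils need to survive, was called lower in one subset only; the difference between the subsets is tested further on. In M-MDSCs it was at 118 and 115 FPKM under vehicle, 79.1 and 74.1 under MS-275, and 83.6 and 90.9 under CXD101. The decrease was called under MS-275, at -0.60 (SE 0.0650, adjusted p = 2.00e-04), and stayed below the fold threshold under CXD101, at -0.41 (adjusted p = 0.00333). The MS-275 call also fell below the fold threshold without vehicle replicate 1 (-0.58) or MS-275 replicate 2 (-0.55) and under the 3 other scalings run: median-of-ratios (-0.56), quantile normalization (-0.46) and FPKM rescaled without S100a8 and S100a9 (-0.53). In PMN-MDSCs the values were 224 and 238 under vehicle, 241 and 227 under MS-275, and 211 and 198 under CXD101, and MS-275 overlapped vehicle. The log2 fold change there was 0.02 for MS-275, with a 95% interval of -0.13 to 0.17, and -0.17 for CXD101 (adjusted p = 0.0661).

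Bcl2, the founding pro-survival gene, was near the filter in all groups and rested on about 21.6 to 143 reads per library. It stood at 1.95 and 1.56 FPKM in M-MDSCs under vehicle, 1.33 and 1.44 under MS-275, and 1.10 and 0.962 under CXD101, and neither comparison was called (adjusted p = 0.274 and 0.0611). In PMN-MDSCs it was 1.63 and 1.62 under vehicle, 0.779 and 0.384 under MS-275, and 1.35 and 0.729 under CXD101. Of these 6 libraries, 3 reached 1 FPKM, both of vehicle and 1 of CXD101, so Bcl2 passed the filter there mainly through the vehicle group. The MS-275 decrease was called at -0.74 (SE 0.210, adjusted p = 0.0192). That call was lost without vehicle replicate 1 (adjusted p = 0.0748), without vehicle replicate 2 (0.0715) or without MS-275 replicate 2 (0.09997).

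**Figure D3:**
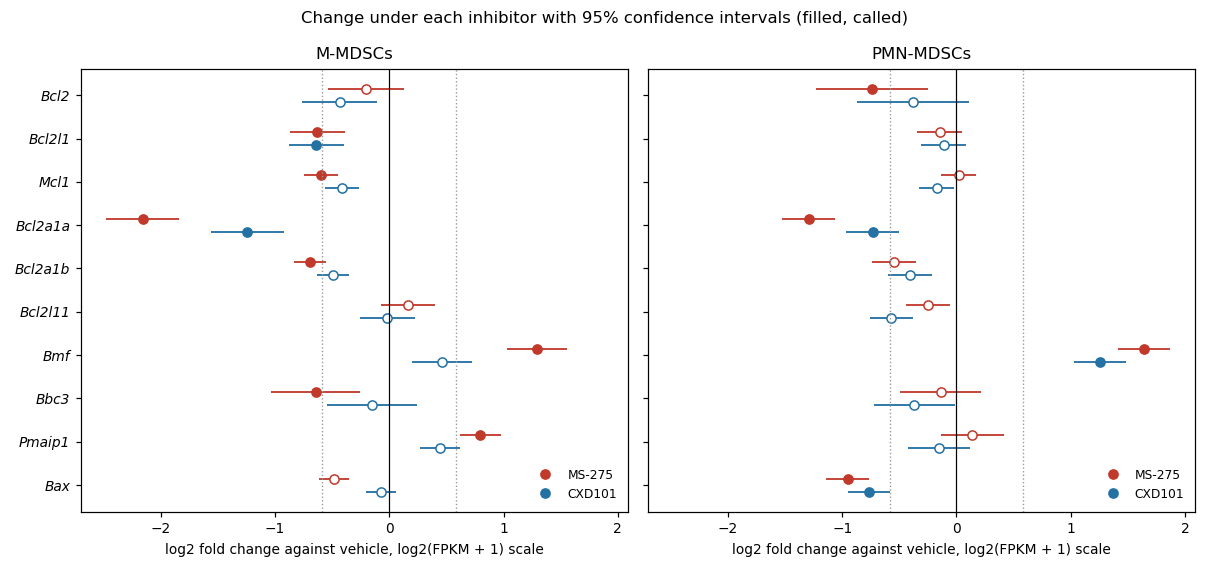
Log2 fold change against vehicle of each gene under MS-275 (red) and CXD101 (blue), with 95% confidence intervals, in M-MDSCs (left) and PMN-MDSCs (right). Filled points were called, open points were not, and dotted lines mark a fold change of 1.5; Bcl2a1a was called lower in all 4 comparisons and Bmf higher in 3.

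Among the BH3-only genes, Bmf rose most. BMF is bound to the cytoskeleton in healthy cells and neutralizes pro-survival proteins when released. In M-MDSCs it was at 1.98 and 2.06 FPKM under vehicle, 6.83 and 5.97 under MS-275, and 3.11 and 3.20 under CXD101. In PMN-MDSCs it was at 4.44 and 4.96 under vehicle, 17.2 and 16.4 under MS-275, and 12.6 and 12.7 under CXD101. The 3 groups did not overlap in either subset, in the order vehicle, CXD101, MS-275. The increase was called in M-MDSCs under MS-275 (1.29, SE 0.114, adjusted p = 6.74e-05) and in PMN-MDSCs under MS-275 (1.64, SE 0.0977, adjusted p = 1.37e-05) and CXD101 (1.26, SE 0.0977, adjusted p = 7.14e-05). In M-MDSCs under CXD101 it was 0.46 (adjusted p = 0.0221), below the fold threshold, and with a pseudocount of 0.1 it was 0.62 and called.

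Pmaip1, which encodes NOXA, the BH3-only protein that binds MCL1 and A1, rose in M-MDSCs under MS-275. It stood at 13.2 and 12.4 FPKM under vehicle, 22.3 and 23.8 under MS-275, and 17.5 and 18.1 under CXD101, with no overlap between the 3 groups. The log2 fold change was 0.80 (SE 0.0767, adjusted p = 1.06e-04) for MS-275 and 0.44 (adjusted p = 0.00503, below the fold threshold) for CXD101. In PMN-MDSCs it was 17.1 and 17.2 under vehicle, 21.4 and 16.8 under MS-275, and 15.8 and 14.8 under CXD101, and neither comparison passed (adjusted p = 0.354 and 0.324).

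Bbc3 encodes PUMA, the BH3-only protein best known as a target of p53. Its FPKM in M-MDSCs was 8.96 and 9.40 under vehicle, 5.05 and 6.02 under MS-275, and 6.57 and 10.1 under CXD101, where the replicates straddled the vehicle values. It fell under MS-275 by 0.64 on the log2 scale (SE 0.170, adjusted p = 0.0151). The call was lost without vehicle replicate 2 (adjusted p = 0.0668), without MS-275 replicate 1 (0.0718) or with no filter on low values (0.0528), and the value fell just below the fold threshold, to -0.58, with FPKM rescaled without S100a8 and S100a9. In PMN-MDSCs it stood at 11.8 and 8.40 under vehicle, 9.36 and 8.60 under MS-275, and 7.83 and 7.16 under CXD101, with no call (adjusted p = 0.477 and 0.0821). Without vehicle replicate 2, which held the lower value, the CXD101 comparison in PMN-MDSCs was called at -0.59.

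Bcl2l11, which encodes BIM, a direct binder of all pro-survival members and a driver of neutrophil turnover, was not called in any comparison with vehicle. In M-MDSCs it was at 11.1 and 10.7 FPKM under vehicle, 12.7 and 11.9 under MS-275, and 9.74 and 11.9 under CXD101. In PMN-MDSCs it was at 28.9 and 28.1 under vehicle, 23.9 and 23.8 under MS-275, and 19.9 and 17.97 under CXD101, with no overlap between the groups. The PMN-MDSC log2 fold changes were -0.25 (adjusted p = 0.0341) for MS-275 and -0.57 (adjusted p = 0.00114) for CXD101. The CXD101 value passed the fold threshold at -0.64 without CXD101 replicate 1 and at -0.59 without vehicle replicate 2, with a pseudocount of 0.1 or with FPKM rescaled without S100a8 and S100a9.

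Bax, the effector whose product forms the mitochondrial pore, fell in PMN-MDSCs. It was at 302 and 262 FPKM under vehicle, 143 and 146 under MS-275, and 159 and 170 under CXD101. The vehicle replicates differed more than those of the other groups, and both still lay above all treated libraries. The log2 fold changes were -0.95 (SE 0.0794, adjusted p = 6.17e-05) and -0.77 (SE 0.0794, adjusted p = 2.62e-04). In M-MDSCs it was 264 and 276 under vehicle, 187 and 199 under MS-275, and 256 and 257 under CXD101. The MS-275 value of -0.48 (adjusted p = 2.88e-04) was below the fold threshold, and the CXD101 value of -0.07 (95% interval -0.20 to 0.06) did not pass the test. Bak1, the other effector, was not called: it was -0.51 (adjusted p = 7.46e-04) in M-MDSCs and -0.48 (adjusted p = 9.34e-04) in PMN-MDSCs under MS-275, and -0.21 and -0.36 under CXD101.

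Counted together, 7 of the 10 members were called in M-MDSCs under MS-275, against 17.5% of all 11078 genes tested. Those higher were Bmf and Pmaip1, 2 members against 10.1% of all genes, and those lower were Bcl2a1a, Bcl2a1b, Bcl2l1, Mcl1 and Bbc3, 5 members against 7.32%. With quantile normalization the count was 4, against 1798 of 11078 genes over all. With FPKM rescaled without S100a8 and S100a9 it was 4, against 1921 of 11090. Under CXD101 the same subset had 2 called members, Bcl2a1a and Bcl2l1, both lower, against 8.13% of all genes. Without CXD101 replicate 2 the Bcl2l1 value was -0.50, below the fold threshold. In PMN-MDSCs the counts were 4 under MS-275 (Bmf higher and Bax, Bcl2 and Bcl2a1a lower), against 28.7% of 11184 genes, and 3 under CXD101 (Bmf higher and Bax and Bcl2a1a lower), against 21.4%. Leaving out vehicle replicate 2 raised the CXD101 count in PMN-MDSCs to 5. The median log2 fold change of the members in M-MDSCs was -0.54 under MS-275 and -0.28 under CXD101, beside medians of -0.06 and -0.02 over all genes tested.

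The summed FPKM of the 5 pro-survival members and of the 4 BH3-only members moved apart in M-MDSCs under MS-275. The pro-survival sum was 397 and 393 under vehicle, 228 and 223 under MS-275, and 267 and 263 under CXD101, and the BH3-only sum was 35.3 and 34.6, 46.9 and 47.7, and 36.9 and 43.3. The ratio of these sums was 11.3 and 11.4 under vehicle, 4.86 and 4.67 under MS-275, and 7.23 and 6.07 under CXD101, with no overlap between groups. In PMN-MDSCs the ratio was 14.4 and 16.5 under vehicle, 10.01 and 9.89 under MS-275, and 13.1 and 13.3 under CXD101, again without overlap. These are ratios of message levels dominated by Bcl2a1b and Mcl1, and no test was run on them.

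MS-275 and CXD101 were compared directly, at the same dose and time, for the 10 members in each subset, which makes 20 pairs, with p-values adjusted over all genes tested. In M-MDSCs 2 members were called, against 4.40% of all genes: Bcl2a1a was lower under MS-275 than under CXD101 by -0.92 (SE 0.140, adjusted p = 0.00598) and Bmf was higher by 0.83 (SE 0.114, adjusted p = 0.00413). When the 3 A1 copies were summed, the difference was -0.17 (adjusted p = 0.0820) and was not called. Bax (-0.41, adjusted p = 0.00415) and Pmaip1 (0.35, adjusted p = 0.0217) differed by less than the fold threshold. Bbc3 was not called at -0.49 (adjusted p = 0.0931), and without CXD101 replicate 1 it was called at -0.77. Bcl2l1 did not separate the compounds in M-MDSCs, where the 95% interval of the difference was -0.23 to 0.25, or in PMN-MDSCs, where it was -0.23 to 0.16. In PMN-MDSCs no member was called, against 0.805% of all genes. At an unadjusted p under 0.05, 6 of the 10 members passed there, against 15.4% of all genes: Bcl2a1a at -0.56 (adjusted p = 0.0499, interval -0.79 to -0.33), Bmf at 0.38 (adjusted p = 0.133), Bcl2l11 at 0.32 (adjusted p = 0.135), Mcl1 at 0.19, Pmaip1 at 0.29 and Bax at -0.18.

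**Figure D4:**
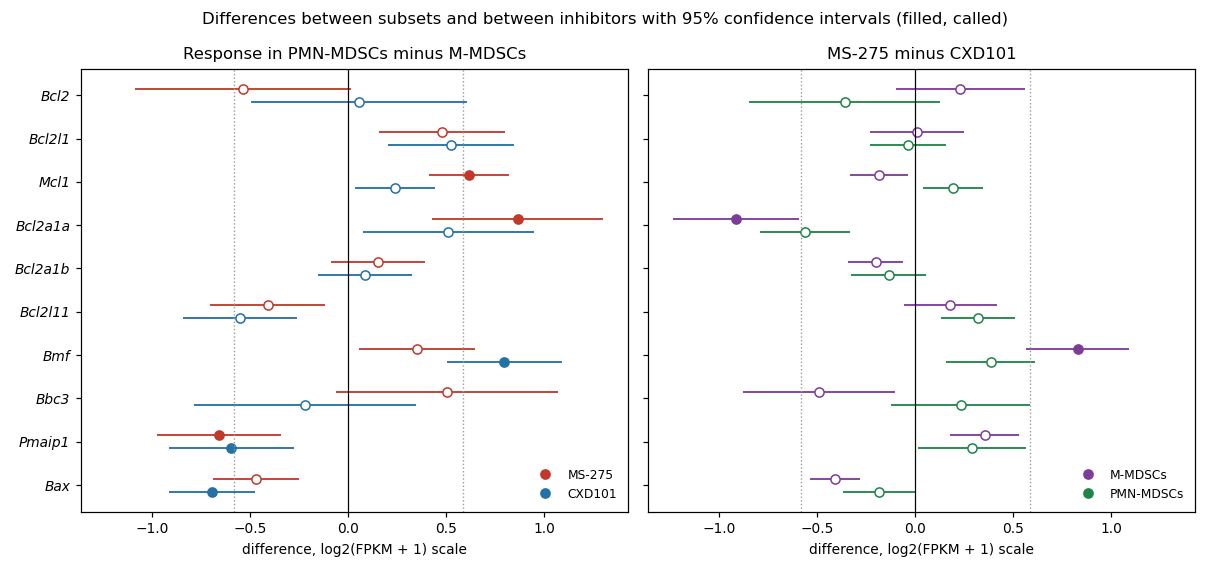
Left, the response in PMN-MDSCs minus that in M-MDSCs for MS-275 (red) and CXD101 (blue); right, MS-275 minus CXD101 in M-MDSCs (purple) and PMN-MDSCs (green), all on the log2(FPKM + 1) scale with 95% confidence intervals. Filled points were called and dotted lines mark a fold change of 1.5; Pmaip1 was called negative for both inhibitors on the left, and Bcl2a1a and Bmf were the filled points on the right.

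Between the subsets, 6 of the 10 members stood higher in the PMN-MDSCs of vehicle mice and none stood lower, against 34.0% of 11662 genes called, 17.2% higher and 16.8% lower. They were Bcl2a1a (log2 difference 1.42), Bcl2a1b (1.34), Bcl2l11 (1.31), Bcl2l1 (1.02), Mcl1 (0.98) and Bmf (0.92), with adjusted p between 1.39e-07 and 1.06e-05. Pmaip1 differed by 0.39 (adjusted p = 0.00620), below the fold threshold, and Bcl2, Bbc3 and Bax did not pass (-0.07, 0.11 and 0.06). Under MS-275 there were 8 called members, against 50.4% of all genes: the same 6 and Bbc3 (0.61) were higher and Bcl2 (-0.60) was lower. The Bbc3 call was lost without MS-275 replicate 1 of either subset (adjusted p = 0.0706 for M-MDSCs and 0.0530 for PMN-MDSCs), and the Bcl2 call without MS-275 replicate 2 of either (-0.57 and -0.42). Bbc3 also fell below the fold threshold with FPKM rescaled without S100a8 and S100a9 (0.49) and Bcl2 with quantile normalization (-0.57), which in turn brought Bax past it (-0.60). Under CXD101 there were 7, against 49.0%: the same 6 were higher and Bax was lower by -0.64 (adjusted p = 1.08e-05).

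The response to each inhibitor was then compared between subsets as an interaction. For MS-275, 3 members were called, against 18.1% of all genes. The decrease of Bcl2a1a was smaller in PMN-MDSCs by 0.86 (SE 0.197, adjusted p = 0.00792), although the summed A1 copies differed by 0.10 (adjusted p = 0.535). Mcl1 differed by 0.62 (SE 0.0920, adjusted p = 7.99e-04), which dropped below the fold threshold without M-MDSC MS-275 replicate 2, PMN-MDSC vehicle replicate 1 or PMN-MDSC MS-275 replicate 1 (0.57 in each), with quantile normalization (0.52) and with FPKM rescaled without S100a8 and S100a9 (0.50). Pmaip1 differed by -0.66 (SE 0.143, adjusted p = 0.00622), or -0.49 without PMN-MDSC MS-275 replicate 2. For CXD101, 3 members were called, against 13.9% of all genes. Without M-MDSC CXD101 replicate 1, Bcl2l1 (0.66) and Bcl2l11 (-0.68) passed the fold threshold too. Bcl2l1 also passed without PMN-MDSC CXD101 replicate 2 (0.63), and Bcl2l11 without PMN-MDSC CXD101 replicate 1 (-0.62) and with FPKM rescaled without S100a8 and S100a9 (-0.59). Bmf rose more in PMN-MDSCs by 0.80 (SE 0.133, adjusted p = 0.00207), Bax differed by -0.70 (SE 0.0997, adjusted p = 8.81e-04), and Pmaip1 differed by -0.60 (SE 0.143, adjusted p = 0.0132). The Pmaip1 value was -0.55 to -0.57, below the fold threshold, without M-MDSC vehicle replicate 2, M-MDSC CXD101 replicate 2 or PMN-MDSC CXD101 replicate 2, and -0.58 with quantile normalization. For MS-275, the Bax difference passed the fold threshold with FPKM rescaled without S100a8 and S100a9 (-0.59).

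The other lists held 78 genes of the family and of the caspase, inhibitor of apoptosis and death receptor pathways. Regulators of BH3-only genes and genes of MCL1 turnover were among the 78, and 65 were tested in each subset. In M-MDSCs 4 rose and 6 fell under MS-275, and none rose and 2 fell under CXD101. In PMN-MDSCs 9 rose and 8 fell under MS-275, and 8 rose and 3 fell under CXD101. These counts stand against the same shares of all genes given above, and the median log2 fold change of the 65 genes was -0.15 and -0.10 in M-MDSCs and -0.09 and -0.08 in PMN-MDSCs.

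**Figure D5:**
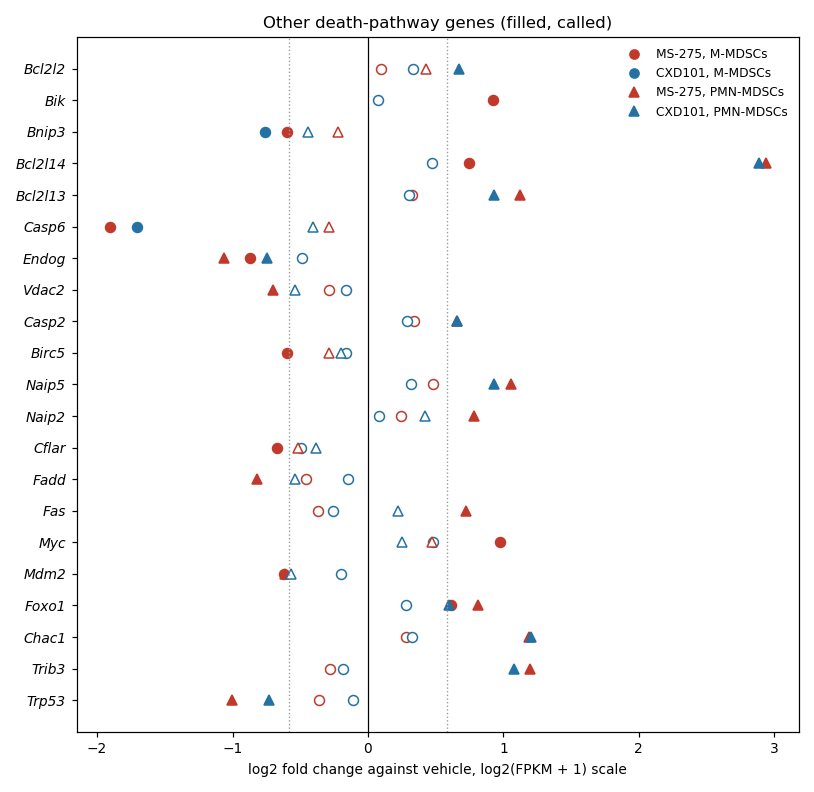
Log2 fold change against vehicle for the named genes of the other lists, with circles for M-MDSCs, triangles for PMN-MDSCs, red for MS-275 and blue for CXD101. Filled symbols were called and dotted lines mark a fold change of 1.5; Casp6 was lowest in M-MDSCs under both inhibitors and Bcl2l14 highest in PMN-MDSCs under both.

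Of the 13 apoptosome and caspase genes, 2 fell in M-MDSCs under MS-275 and none rose. Casp6, an executioner caspase, stood at 16.1 and 17.9 FPKM in M-MDSCs under vehicle, 4.40 and 3.25 under MS-275, and 5.04 and 4.04 under CXD101. It fell by 1.91 (adjusted p = 3.07e-05) and by 1.70 (adjusted p = 1.89e-04) on the log2 scale, and in PMN-MDSCs it was -0.29 and -0.41, below the fold threshold. Endog, a mitochondrial nuclease gene, fell in M-MDSCs under MS-275 (-0.87) and in PMN-MDSCs under both inhibitors (-1.06 and -0.75). In PMN-MDSCs Casp2, an initiator caspase gene, rose under both inhibitors (0.66 and 0.65) and Vdac2, a mitochondrial channel gene whose product binds BAK1, fell under MS-275 (-0.70), as did Vdac1, named after its value was seen (-0.61).

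Among the BCL2-related genes outside the member list, Bcl2l14 rose most in PMN-MDSCs, from 0.223 and 0.229 FPKM under vehicle to 7.58 and 9.34 under MS-275 and 6.82 and 9.54 under CXD101. These increases were 2.94 (SE 0.174, adjusted p = 1.36e-05) and 2.89 (SE 0.174, adjusted p = 2.38e-05) on the log2 scale. Both vehicle libraries were under 1 FPKM, so Bcl2l14 passed the filter there only through the treated groups. The p-values do not allow for that. Bcl2l14 rose in M-MDSCs under MS-275 as well, by 0.75 (SE 0.252, adjusted p = 0.0397), and was at 0.47 (adjusted p = 0.212) under CXD101. Bcl2l13, a mitophagy receptor gene, rose in PMN-MDSCs by 1.12 and 0.93. In M-MDSCs Bnip3, which encodes another mitophagy receptor, fell under both inhibitors (-0.60 and -0.76). The BH3-only gene Bik rose under MS-275 (0.92, adjusted p = 0.00544) from a level near 0, at 0.385 and 0.268 FPKM under vehicle and 1.16 and 1.91 under MS-275. Its vehicle libraries were under 1 FPKM too, so Bik passed the filter only through treated libraries. Bcl2l2, which encodes the pro-survival protein BCL-W, rose in PMN-MDSCs under CXD101 (0.67, adjusted p = 0.00727). The BH3-only genes Bid and Bad were not called under either inhibitor in either subset.

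Of 14 tested regulators of BH3-only genes, 2 rose and 1 fell in M-MDSCs under MS-275 and none was called under CXD101, while 3 rose and 4 fell in PMN-MDSCs under MS-275 and 3 rose and 2 fell under CXD101. Trp53, which encodes p53, stood at 73.7 and 64.6 FPKM in PMN-MDSCs under vehicle, 32.2 and 35.6 under MS-275, and 42.3 and 40.1 under CXD101, and fell by 1.01 and 0.73 on the log2 scale. Foxo1, a forkhead factor gene, rose in M-MDSCs under MS-275 (0.62) and in PMN-MDSCs under both inhibitors (0.81 and 0.60). Chac1 and Trib3, genes induced in the integrated stress response, rose in PMN-MDSCs under MS-275 (both 1.19) and CXD101 (1.21 and 1.08). Myc rose in M-MDSCs under MS-275 (0.97), and Mdm2, whose product marks p53 for degradation, fell by 0.62 both there and in PMN-MDSCs under MS-275. The other PMN-MDSC genes that fell, named after their values were seen, were Cdkn1a, which encodes the cell cycle inhibitor p21 (-0.72 and -0.77 under MS-275 and CXD101), and Dynll1, a dynein light chain gene (-0.67 under MS-275).

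The remaining lists held fewer calls. Of 10 tested inhibitor of apoptosis genes and antagonists, Birc5, which encodes survivin, fell in M-MDSCs under MS-275 (-0.60), and Naip5 and Naip2, inflammasome sensor genes, rose in PMN-MDSCs under MS-275 (1.06 and 0.79), Naip5 also under CXD101 (0.93). Of 12 tested death receptor genes, Cflar, which encodes the caspase-8 inhibitor c-FLIP, fell in M-MDSCs under MS-275 (-0.67). In PMN-MDSCs Fadd, the death receptor adaptor, fell (-0.82) and Fas, the receptor, rose (0.72), both under MS-275. The changes of Bnip3, Birc5, Vdac1, Mdm2 and Foxo1 lay close to the fold threshold, and alternatives were not run for genes outside the member list. None of the 4 tested genes of MCL1 turnover was called under either inhibitor in either subset by limma. At an unadjusted p under 0.05 the number was 2 under MS-275 and 1 under CXD101 in M-MDSCs, against 53.9% and 36.5% of all genes, and 1 under each in PMN-MDSCs, against 59.4% and 53.9%. The deubiquitinase gene Usp9x, named after its value was seen, had a log2 fold change of -0.43 (adjusted p = 0.00793) in M-MDSCs under MS-275.

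Markers of cell types and maturity moved with treatment in the same libraries. The 10 neutrophil markers summed to 11427 to 12081 FPKM in M-MDSCs under vehicle, 22041 to 26020 under MS-275 and 22001 to 23199 under CXD101, and to 71571 to 97549, 255532 to 279021 and 269827 to 296062 in PMN-MDSCs. All 10 had a mean of at least 1 FPKM in every group, M-MDSCs included, and Ly6g was not analysed here. The single markers did not all follow the sum: in M-MDSCs 5 rose and 3 fell under MS-275 and 5 rose and 1 fell under CXD101, and in PMN-MDSCs 8 rose and 1 fell under MS-275 and 8 rose and none fell under CXD101. The 8 markers of early granulocytes and progenitors, all detected, summed to 1923 to 2006 in M-MDSCs under vehicle, 4873 to 5184 under MS-275 and 4179 to 4343 under CXD101. Of these, 5 rose and none fell there under each inhibitor. In PMN-MDSCs they summed to 293 to 429, 493 to 548 and 472 to 537. There 3 rose under MS-275 and 2 under CXD101, and none fell. The 10 monocyte and macrophage markers summed to 1661 to 1722, 2692 to 2740 and 2345 to 2418 in M-MDSCs, and to 774 to 859, 1685 to 1887 and 1620 to 1828 in PMN-MDSCs. More of these markers fell than rose although their sum went up: in M-MDSCs 2 of 9 tested rose and 4 fell under MS-275 (median log2 fold change -0.35) and 1 rose and 4 fell under CXD101 (-0.25), and in PMN-MDSCs 2 of 10 rose and 5 fell under each (-0.62 and -0.63). The number with a mean of at least 1 FPKM went from 9 under vehicle to 6 under MS-275 and 8 under CXD101 in M-MDSCs, and from 10 to 6 and 8 in PMN-MDSCs. The 7 eosinophil markers summed to 152 to 185, 377 to 402 and 367 to 397 in M-MDSCs and to 140 to 180 in PMN-MDSCs. Of the 5 tested in M-MDSCs, 4 rose under MS-275 and 5 under CXD101, and none fell. Of the 6 tested in PMN-MDSCs, 1 rose and 1 fell under each inhibitor. Lymphocyte and NK cell markers summed to at most 3.57 FPKM. Hepatocyte and tumor markers summed to 1.69 to 1.90 in M-MDSCs under vehicle, 7.66 to 7.97 under MS-275 and 2.29 to 2.97 under CXD101. In PMN-MDSCs they reached at most 2.82. Erythroid and endothelial markers, of which 1 had a mean of at least 1 FPKM, summed to 8.96 to 9.64, 33.3 to 36.8 and 27.2 to 27.3 in M-MDSCs. In PMN-MDSCs they summed to 16.9 to 17.6, 55.9 to 58.5 and 51.7 to 51.8. The part of these shifts in the members' changes was not tested, and in bulk samples fewer cells of a type and less RNA per cell cannot be told apart.

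The genes whose 12 library values ran closest to those of a member were sought among 8412 genes for the 3 members with the widest range of group means, by the root mean square difference of centred log2(FPKM + 1). Closest to Bcl2a1a were Pira2 (0.200), Cdc42ep2 (0.270) and Relb (0.316), the last encoding an NF-kB subunit. Pira2 stood at 21.3 and 21.3 FPKM in M-MDSCs under vehicle and at 4.68 and 6.43 under MS-275. Closest to Bmf were Adgrl2 (0.132), H2-Ke6 (0.149) and Cbx7 (0.173), and closest to Bcl2a1b were Lrp12 (0.0778) and Tnfaip2 (0.120). All 12 values of a gene come from the same libraries, so this likeness describes these libraries only.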

How the data were processed

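Total RNA of sorted M-MDSCs and PMN-MDSCs was sequenced with the TruSeq stranded mRNA kit on a NovaSeq instrument in single-end reads of 101 bases. The extraction kit was miRNeasy Micro in the labels and miRNeasy Mini in the study's methods. The authors deposited 1 table per library with the FPKM of each gene symbol. The submitters' processing notes list TopHat2 2.1.1, Bowtie2 2.2.8, SAMtools 0.1.18, Cuffdiff 2.2.1 and build mm10; the annotation and strand setting are not given in the sources used here.

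Groups were taken from the labels, with 2 libraries each. FPKM values were transformed to log2(FPKM + 1) after a filter (1 FPKM or more in 2 or more libraries of the fit) and tested with limma 3.58.1 (R 4.3.3, two-sided, moderated with an intensity trend). Comparisons within a subset were fitted on its 6 libraries, and comparisons between subsets and interactions on all 12. Benjamini-Hochberg adjustment ran over all genes tested, and genes were called at an adjusted p under 0.05 and a fold change above 1.5, the thresholds of the study. The members and the other gene lists were chosen with earlier results of these data known. Other genes were named by rule: per list and subset, up to 3 called genes with the largest change, with Bak1, Bid, Bad, Bcl2l2, Bcl2a1c and Bcl2a1d in any case. On simulated data for MS-275 in M-MDSCs (10864 genes), 200 of 200 genes changed by 1 on the log2 scale were recovered and 2 unchanged genes were called. The spread came from the fit itself, and the changed genes were drawn at higher levels than Bcl2 and Bmf. Changes near the fold threshold were not simulated, so the recovery does not cover calls of low genes or near that threshold.

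Depth was estimated from the smallest steps of FPKM, with 200 bases subtracted from transcript lengths, so read numbers are approximate. Replicate numbers were checked for pairing: the correlation of same-numbered libraries' deviations from the group means was -0.14 to 0.09, so the numbers were not used as a block. Shared read positions were counted on the longest GENCODE transcript of each gene (GRCm38). Coordinates and sequence of Pmaip1 are not reported here. Alternatives covered the pseudocount, filter, scaling, thresholds, samples in the fit, replicate block, summed A1 copies and leaving out each library.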

Additional observations from a re-analysis of the deposited data

Results flagged for a closer look

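The response to an inhibitor differed between PMN-MDSCs and M-MDSCs by an interaction test (limma on all 12 libraries) in 6 cases among the 20 tested for the 10 members. Over all 11662 genes tested, the share called was 18.1% for MS-275 and 13.9% for CXD101. For MS-275 the response in PMN-MDSCs minus that in M-MDSCs was 0.86 for Bcl2a1a, 0.62 for Mcl1 and -0.66 for Pmaip1 on the log2 scale. For CXD101 it was 0.80 for Bmf, -0.70 for Bax and -0.60 for Pmaip1. Pmaip1 was the member called for both inhibitors. The vehicle libraries enter both interactions, so the results for the 2 inhibitors share them. The Bcl2a1a difference was 0.10 when the 3 A1 copies were summed. All groups had 2 libraries, too few for a check of single outlying libraries.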

How the results depend on the processing

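Of the alternatives run for single members, 1939 values kept their direction and their side of the thresholds, 39 lost and 18 gained a call, and 24 changed sign, all of them in comparisons that were not called. The number of called members moved by more than 1.5 times as follows, with the count over all genes at the same setting in parentheses. In M-MDSCs under MS-275 it went from 7 to 4 with quantile normalization (1798 of 11078). It was 4 with FPKM rescaled without S100a8 and S100a9 (1921 of 11090) and 2 with a fold change above 2 (720 of 11078). In M-MDSCs under CXD101 it went from 2 to 1 with quantile normalization (757 of 11078), a fold change above 2 (261 of 11078) and summed A1 copies (900 of 11076). It went to 6 with adjusted p alone (2560 of 11078). Between the inhibitors in M-MDSCs it went from 2 to 0 with a fold change above 2 (134 of 11078). It went to 4 with adjusted p alone (1522 of 11078) and 1 with summed A1 copies (486 of 11076). Between the inhibitors in PMN-MDSCs it went from 0 to 1 with adjusted p alone (131 of 11184). In PMN-MDSCs it went from 4 to 2 under MS-275 (1278 of 11184) and from 3 to 1 under CXD101 (854 of 11184) with a fold change above 2. It went to 5 under CXD101 with adjusted p alone (5070 of 11184). Between the subsets under MS-275 it went from 8 to 5 with a fold change above 2 (3062 of 11662). For the interactions it went from 3 to 0 with a fold change above 2 (694 of 11662 for MS-275 and 474 of 11662 for CXD101). With adjusted p alone it went to 6 for MS-275 (3614 of 11662) and 5 for CXD101 (2824 of 11662). These thresholds change the counts by their construction; for the scalings the cause was not tested. Rescaling without S100a8 and S100a9 moved the median of all genes between the subsets under MS-275 to -0.12.

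With 1 library left out, the lone library of its group is assumed to vary like the others, and counts of called members are not given. The log2 values that changed sign on leaving out a library ranged, for CXD101 in M-MDSCs, from -0.15 to 0.11 (Bcl2l11) and -0.43 to 0.12 (Bbc3); for MS-275 in PMN-MDSCs, from -0.023 to 0.064 (Mcl1), -0.36 to 0.084 (Bbc3) and -0.028 to 0.30 (Pmaip1); between the inhibitors, from -0.13 to 0.15 in M-MDSCs and -0.14 to 0.067 in PMN-MDSCs (Bcl2l1); between the subsets under vehicle, from -0.17 to 0.036 (Bcl2), -0.044 to 0.16 (Bax) and -0.11 to 0.33 (Bbc3); between the subsets under CXD101, from -0.23 to 0.21 (Bcl2) and -0.39 to 0.16 (Bbc3); and for the CXD101 interaction, from -0.17 to 0.28 (Bcl2) and -0.49 to 0.056 (Bbc3).

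Sign changes under other scalings were Bcl2l11 for CXD101 in M-MDSCs (0.012 with quantile normalization and 0.0021 rescaled without S100a8 and S100a9), Mcl1 for MS-275 in PMN-MDSCs (-0.030 rescaled) and Bax between the subsets under vehicle (-0.055 with quantile normalization).

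With the replicate number as a block, all 110 member values kept their call and direction. In M-MDSCs the number called was 7 for MS-275 (1933 of 11078 over all genes) and 2 for CXD101 (901 of 11078). The replicate numbers did not pair the libraries. Depth limits Bcl2 most, and 2 libraries per group limit all comparisons.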
